A study of Arabidopsis thaliana with 4 samples.

Results

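Untreated seedlings of a lincRNA11195 mutant of Arabidopsis thaliana were compared with untreated wild type seedlings across all genes, in 6 of the 12 RNA sequencing libraries of the study. Both groups were in the Col0 background, 2 weeks old and untreated, and they differed by sample title only in the genotype, so no agent is shared by the controls. The description and column names of the untreated wild type also hold a 12, which those of the other groups lack. The labels do not say what it means, and any difference it marks cannot be told apart from the genotype. Each group held 3 biological replicates per the series text. The other 6 libraries came from the same genotypes after 12 h of the hormone abscisic acid (ABA), and their levels are given only beside the untreated ones. All 12 libraries entered 1 fit, so the ABA libraries share in the filter, the scaling and the spread behind the untreated SEs and calls. With the 6 untreated libraries alone 1573 genes were called higher and 2576 lower, in place of 1869 and 3153. Only 1 mutant line is labelled, and the effects of the mutation and of the line's remaining background cannot be told apart. The lincRNA11195 transcript itself was not analysed here, because the annotation names no gene by it, and the group labels are therefore unchecked. Levels below are TMM-normalised CPM (counts scaled to a common library size), in the order of replicates 1, 2 and 3, and fold changes are log2 of mutant over wild type ± SE with 3 libraries a group. A gene was called higher or lower when its adjusted p from edgeR's quasi-likelihood test was under 0.05.

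Long intergenic noncoding RNAs are transcripts that do not overlap protein-coding genes and do not encode a known protein, and in plants many of them contain sequence from transposable elements. In leaf cells, the light-harvesting proteins bind chlorophyll and pass energy to the photosystems, and the Calvin cycle uses the resulting reducing power to fix carbon. Nuclear genes for these parts are among the most expressed genes of a seedling. Plant immune receptors of the NBS-LRR type detect pathogen activity inside the cell, and WRKY transcription factors, which bind the W-box, act in the responses that follow.

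The untreated mutant differed from wild type in 5022 of 21322 tested genes. Of these, 1869 were higher, which is 8.77% of all tested genes, and 3153 were lower, which is 14.8%. The called lower genes had a median log2 fold change of -0.98 and the called higher genes of 0.77. More than 2-fold differences were found in 599 of the higher and 1539 of the lower genes, and more than 4-fold in 102 and 284. The 3 mutant libraries lay outside the range of the 3 wild type libraries for 1852 of the higher and 3117 of the lower genes. Over all tested genes the median was 0.01. No nuclear gene met the rule for presence in a single genotype, which asked for at most 3 counts in one group and at least 1 CPM in every library of the other.

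**Figure D1:**
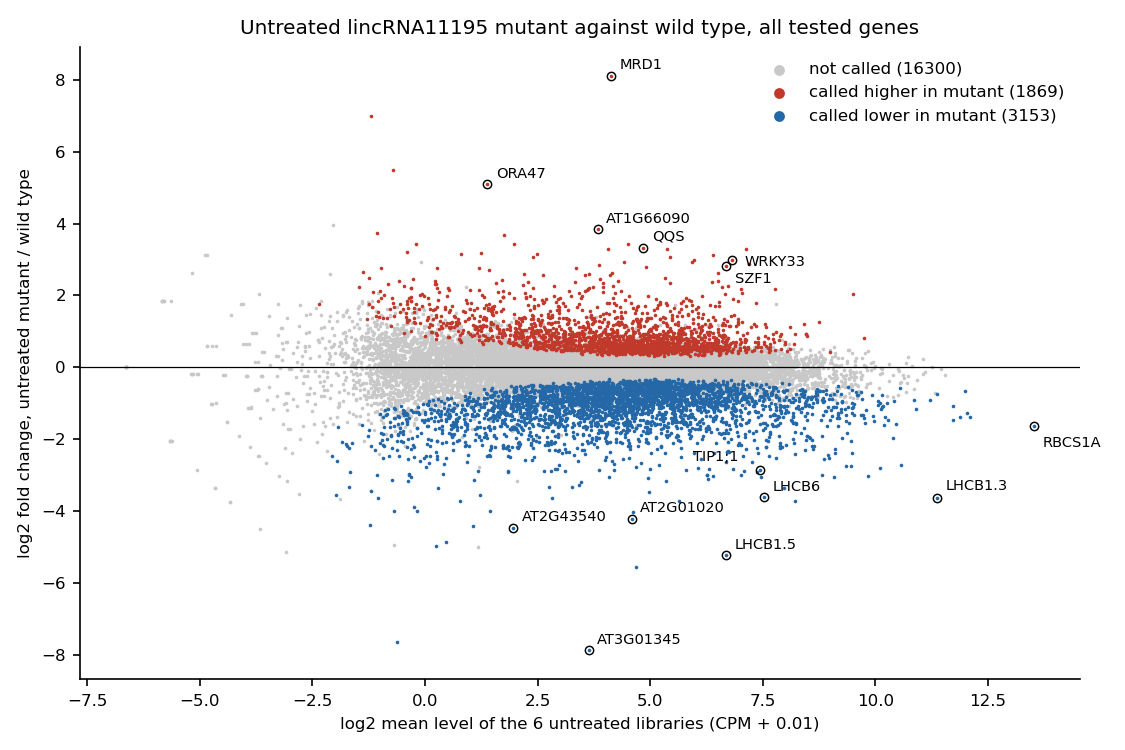
Log2 fold change of the untreated mutant over wild type (vertical) against the log2 mean level of the 6 untreated libraries (horizontal, CPM plus 0.01), 1 point per tested gene. The 1869 genes called higher are red, the 3153 called lower are blue, and circles mark named genes from MRD1 at the top to AT3G01345 at the bottom.

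The 6 libraries held 14691544 to 22477294 counts, with the fewest in mutant replicate 1. The first principal component took 66.9% of their variance and separated the genotypes, with mutant replicate 1 farthest from wild type at 79.3 against 41.8 and 25.3 for mutant replicates 2 and 3. Gene composition moved with the genotype difference. Across 21195 genes with an annotated length, which are not independent replicates and share the same libraries, the fold change fell with exonic GC content (Spearman rho -0.422) and increased with exonic length (0.282). Among 10 equal bins by GC, the bin highest in GC had a median of -0.63, and 45.1% of them were called lower, while the bin lowest in GC had a median of 0.31. Every library followed this split, as the median of the high-GC bin deviated on the log2 scale by 0.333, 0.235 and 0.348 from the 6-library mean in wild type and by -0.599, -0.205 and -0.0631 in the mutant. For length, wild type replicate 2 deviated most. The bin of the longest genes stood at 0.00115, -0.441 and 0.0778 in wild type and at 0.194, 0.0993 and 0.109 in the mutant. The bin of the shortest genes stood at 0.0497, 0.318 and 0.00659 against -0.109, -0.0949 and -0.129. The trend with length thus leans on that library. Fold changes were therefore also computed after a correction of each library for GC content and length, which called 1590 genes higher and 2176 lower, and corrected counts of calls are given below for most lists. The corrected shares of all tested genes are thus below the 8.77% higher and 14.8% lower of the main fit. Among 15 root marker genes 5 were called lower and none higher, against 3 lower after the correction. Their median was -0.95, and -0.47 after the correction, and 12 of the 15 had a negative fold change. Their summed level was 1963 ± 182 CPM in wild type and 1928 ± 216 CPM in the mutant, but a sum follows the most expressed members. Mutant replicate 1 was the lowest mutant library for 14 of the 15. Of 8 seed markers 1 passed the filter on low counts, and of 7 flower and pollen markers 3 did, with no call among them by edgeR or DESeq2 and no unadjusted p under 0.05.

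**Figure D2:**
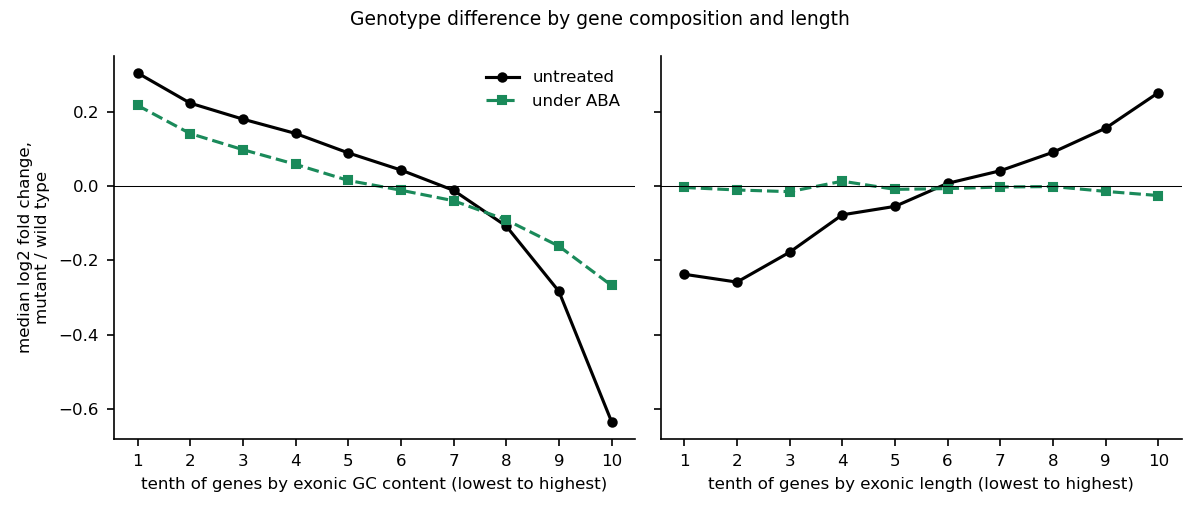
Median log2 fold change of mutant over wild type (vertical) in 10 equal bins of the tested genes by exonic GC content (left) and exonic length (right), untreated (circles) and under ABA (squares). Untreated medians run from 0.31 to -0.63 over GC and from -0.24 to 0.25 over length, and under ABA from 0.22 to -0.27 over GC with no such run over length.

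Most photosynthesis genes were lower in the mutant. Over 7 lists (antenna, photosystem subunits, electron transport and Calvin cycle), 60 of 72 measured genes were called lower and none higher, with a median of -1.61. After the GC and length correction 49 of the 72 were lower and the median was -1.12. Together these genes took 102842, 114224 and 101601 CPM in wild type and 30757, 46169 and 54554 CPM in the mutant. All mutant libraries lay below all wild type libraries, and mutant replicate 1 was the lowest of the 3 for 61 of the 72 genes. That library also deviated most in the high-GC genes, and the part of either in the result was not tested. Without that library 53 of the 72 were called lower, with a median of -1.41. The LHCII genes had a median GC content of 46.4% against 41.1% over all tested genes. In whole seedlings, fewer green cells and less RNA per cell cannot be told apart.

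The major antenna of photosystem II, the LHCII trimer, had all 9 measured genes lower, with a median of -3.05. LHCB1.3 stood at 4513, 6328 and 3830 CPM in wild type and 201, 377 and 597 CPM in the mutant. The groups were far apart, and mutant replicate 1 was lowest (log2 fold change -3.64 ± 0.40, adjusted p = 7.68e-05). LHCB1.2 stood at 514, 778 and 371 CPM against 25.2, 38.1 and 63.5 CPM (-3.71 ± 0.37, adjusted p = 4.58e-05). LHCB1.5 went from 197, 219.9 and 187 CPM to 5.35, 4.34 and 6.62 CPM, with close values within each group (-5.21 ± 0.31, adjusted p = 2.5e-06). LHCB1.4 varied widely in wild type, at 50.9, 12 and 87 CPM, against 0.852, 0.715 and 1.55 CPM in the mutant (-5.55 ± 0.93). LHCB2.1 and LHCB2.2, for another protein of the trimers, were lower at -2.20 ± 0.25 and -2.30 ± 0.26. The sources used here do not say how reads shared by close LHCB1 copies were divided, which makes single copies uncertain.

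Among the minor antenna genes, whose proteins link the trimers to the photosystem II core, all 5 were lower. LHCB6 was at 323, 459.9 and 243 CPM in wild type and 22.4, 27.6 and 34.4 CPM in the mutant (-3.60 ± 0.30, adjusted p = 1.69e-05). LHCB4.1 was at 944, 1109 and 822 CPM and 80.0, 114 and 157 CPM (-3.03 ± 0.28). LHCB5 differed least of the list, at 1311, 1817 and 1258 CPM against 446, 782 and 978 CPM (-0.99 ± 0.32, adjusted p = 0.0383). Its call was lost after the GC and length correction (-0.67), with the 6 untreated libraries alone, and without any single library other than mutant replicate 3.

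All 11 genes for photosystem II subunits were lower as well, with a median of -1.92 and all 11 still called after the correction. PSBTN, which encodes a small subunit, stood at 405, 628 and 334 CPM in wild type against 42.8, 36.1 and 54.4 CPM (-3.36 ± 0.25, adjusted p = 8.53e-06). PSBR had 1492, 1943 and 1422 CPM against 110.4, 176 and 314 CPM (-3.02 ± 0.40). PSBW, for another small subunit, had 652, 919.8 and 574 CPM against 225, 164 and 179 CPM (-1.92 ± 0.20), and there mutant replicate 1 was the highest of the mutant libraries. AT3G63540, annotated as a thylakoid lumenal protein and not a list member, was among the 12 largest falls at 82, 107 and 87.3 CPM against 4.26, 6.49 and 10.1 CPM (-3.71 ± 0.31).

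At photosystem I, 11 of 12 subunit genes and all 6 antenna genes were lower, with medians of -1.60 and -1.42. PSAL stood at 968, 1410 and 1014 CPM in wild type against 133, 149.5 and 224 CPM in the mutant (-2.74 ± 0.25, adjusted p = 2.61e-05). PSAG, for a subunit that binds the antenna, showed little spread, at 761, 731 and 775 CPM against 259, 288 and 337 CPM (-1.36 ± 0.14). PSAE2 changed more (-2.98 ± 0.37), as did LHCA2 among the antenna genes (-2.38 ± 0.30, against -1.62 ± 0.25 for LHCA4). After the correction 8 of the 12 subunit genes and 4 of the 6 antenna genes were called lower.

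Electron carriers divided. Of 10 measured genes of electron transport and the ATP synthase, 5 were lower and 5 were not called, with 4 lower after the correction. PETE2, which encodes plastocyanin, stood at 2064, 2498 and 1801 CPM in wild type against 393, 494 and 749.5 CPM (-1.96 ± 0.27, adjusted p = 0.000376). FED A, for the leaf ferredoxin, was at 1612, 2071 and 1591 CPM against 474, 597 and 661 CPM (-1.61 ± 0.20). PETC, for the Rieske protein of the cytochrome complex, was called lower (-1.06 ± 0.25) but changed by -0.15 and lost the call after the correction. FNR1, for the enzyme that takes electrons from ferredoxin and chosen after its values were seen, overlapped between genotypes, at 1216, 1106 and 1155 CPM against 825, 1092 and 1168 CPM.

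In the Calvin cycle 13 of 19 genes were lower, against 9 after the correction. The small subunit of Rubisco, the carbon-fixing enzyme, has some of the most expressed nuclear genes of leaves. RBCS1A stood at 15939, 19946 and 17602 CPM in wild type and 3571, 6445 and 7318 CPM in the mutant, or at group means of 14061 and 4557 CPM per kb (-1.63 ± 0.28, adjusted p = 0.00145). RBCS1B, RBCS2B and RBCS3B, tandem copies whose reads may be shared, were lower at -1.46 ± 0.35, -1.37 ± 0.29 and -1.38 ± 0.32. RCA, the Rubisco activase, had 6350, 5234 and 6036 CPM against 1255, 2599 and 3537 CPM (-1.25 ± 0.34). Its call was lost without wild type replicate 1, mutant replicate 1 or mutant replicate 2, and with the replicate block and the correction together. The aldolase gene FBA2 fell from 1925, 2080 and 1782 CPM to 173, 268 and 401 CPM (-2.78 ± 0.30), and FBA1 was lower at -2.73 ± 0.32. CP12-1, whose protein holds Calvin cycle enzymes inactive in the dark, was at 383, 531 and 295 CPM against 96.1, 78.4 and 85.5 CPM (-2.22 ± 0.20). HCEF1, a fructose bisphosphatase gene, was called lower (-0.96 ± 0.20) but not after the correction (-0.32, adjusted p = 0.212). THI1, a chloroplast thiazole synthase gene outside the list and 1 of the 8 largest falls per kilobase, had 4542, 4964 and 4186 CPM against 1339, 2414 and 2764 CPM (-1.07 ± 0.27).

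Other chloroplast lists held fewer calls. Of 20 chlorophyll synthesis genes 5 were lower and 1 higher, among them CHLM at -0.93 ± 0.14 and GUN4, an activator of the magnesium chelatase, at -1.1 ± 0.19 (its annotated span overlaps GCN2 on the other strand), with DVR higher at 0.65 ± 0.19. The call of DVR was lost without wild type replicate 1, wild type replicate 3 or mutant replicate 1, and after the correction 3 of the 20 were lower and 1 higher. Photorespiration had 2 of 11 lower, and chlorophyll breakdown 1 of 10, both shares near the 14.8% of all tested genes called lower. Of 22 genes of light signalling and chloroplast regulation 5 were lower and 1 higher, against 5 and 0 after the correction. GLK1, a transcription factor that activates antenna genes, stood at 89, 71 and 88.9 CPM in wild type against 18.3, 36.9 and 38.7 CPM (-1.40 ± 0.24, adjusted p = 0.00164), and its paralog GLK2 at 45.3, 34.4 and 37.4 CPM against 15.2, 17.8 and 23.7 CPM (-1.04 ± 0.21). Both kept the call after the correction, at -0.57 and -0.83. HY5, a bZIP factor of light signalling, was lower at -0.75 ± 0.17, and ELIP1, a light-stress protein gene, at -1.88 ± 0.25. SIGA, a sigma factor gene of the plastid polymerase, was higher (0.70 ± 0.20), a call lost under 6 of the 14 alternatives, among them those without wild type replicate 2, wild type replicate 3 or mutant replicate 1.

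**Figure D3:**
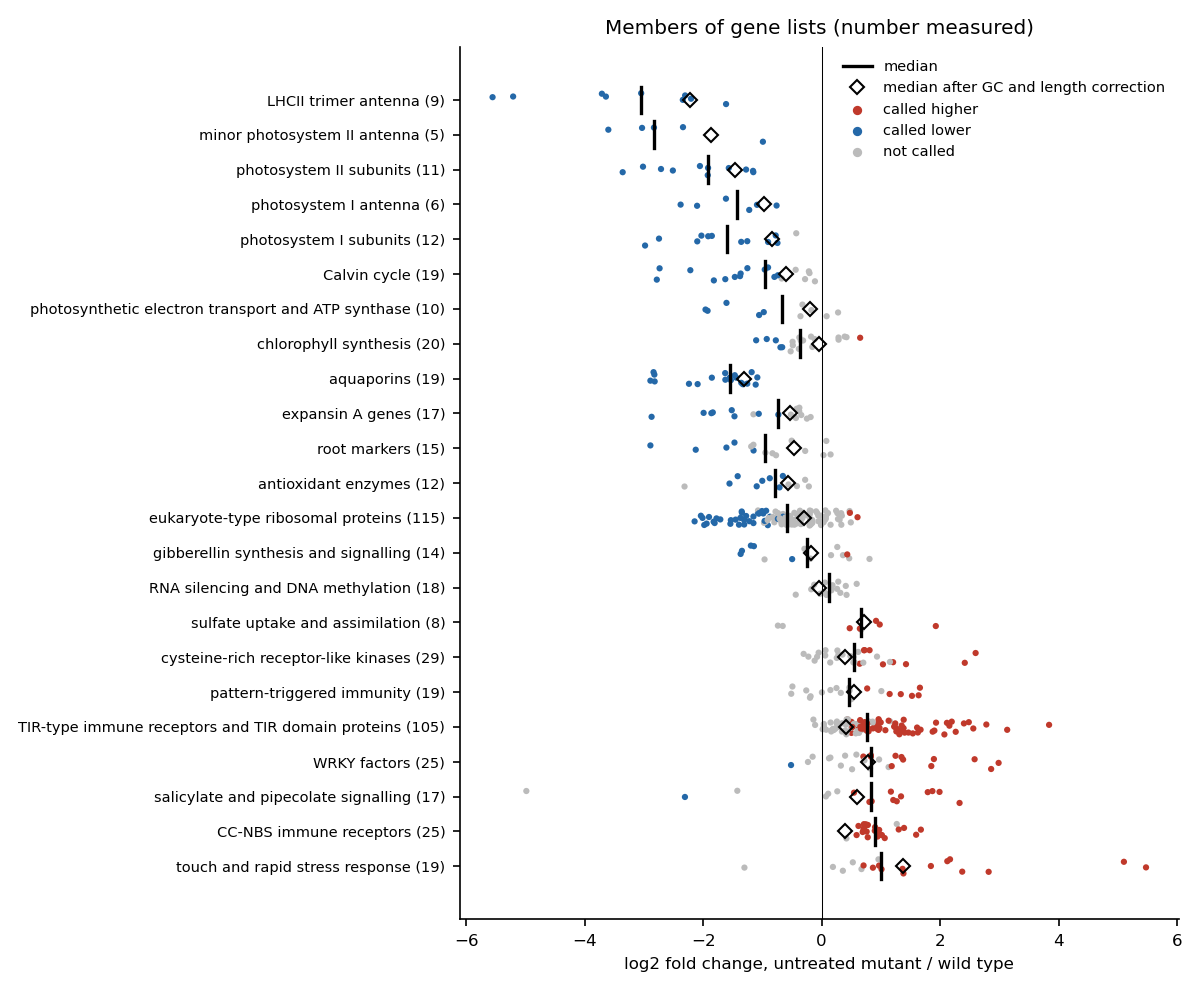
Log2 fold change of untreated mutant over wild type (horizontal) for each measured member of 23 gene lists (rows, with the number measured). Points are genes, coloured by call, bars are list medians, and diamonds are medians after the GC and length correction. The antenna and aquaporin lists lie wholly left of 0, the CC-NBS list wholly right, and the RNA silencing list around 0 with no call.

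Promoter windows are shown as examples for LHCB6 and PSBTN, which were lower, and for WRKY33 and SZF1, which were higher. A part of the motifs in these differences was not tested. Each is the 250 bases before the annotated start in the RefSeq TAIR10.1 genome, 5′ to 3′ on the strand of the gene. Capitals mark matches on either strand to 4 motifs: the G-box CACGTG and the I-box GATAAG, known from light-regulated promoters, the W-box core TTGAC, and a CGCG-type element CGCGTT, known from rapid stress response genes.
LHCB6, chr1:5447881-5448130, minus strand: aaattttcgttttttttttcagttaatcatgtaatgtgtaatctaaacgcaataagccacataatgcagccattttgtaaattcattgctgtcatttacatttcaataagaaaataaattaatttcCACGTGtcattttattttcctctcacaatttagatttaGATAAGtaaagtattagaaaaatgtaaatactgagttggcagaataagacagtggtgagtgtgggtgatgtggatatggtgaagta
PSBTN, chr3:7377227-7377476, minus strand: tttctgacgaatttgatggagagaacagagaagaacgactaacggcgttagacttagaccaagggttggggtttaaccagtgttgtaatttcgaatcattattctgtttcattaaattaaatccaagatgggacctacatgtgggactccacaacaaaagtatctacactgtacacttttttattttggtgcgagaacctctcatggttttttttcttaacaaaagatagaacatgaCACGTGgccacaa
WRKY33, chr2:16107985-16108234, plus strand: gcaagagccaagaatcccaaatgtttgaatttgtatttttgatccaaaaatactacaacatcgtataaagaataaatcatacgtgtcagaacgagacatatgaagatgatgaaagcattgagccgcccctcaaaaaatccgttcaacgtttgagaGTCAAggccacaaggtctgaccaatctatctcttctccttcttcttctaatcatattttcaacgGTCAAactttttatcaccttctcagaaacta
SZF1, chr3:20775970-20776219, plus strand: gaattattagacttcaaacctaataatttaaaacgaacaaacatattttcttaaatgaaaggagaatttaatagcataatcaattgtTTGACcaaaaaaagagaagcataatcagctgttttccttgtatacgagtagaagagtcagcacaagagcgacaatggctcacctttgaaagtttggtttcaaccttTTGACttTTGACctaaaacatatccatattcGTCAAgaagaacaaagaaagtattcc
The LHCB6 window held 1 G-box and 1 I-box, PSBTN 1 G-box, WRKY33 2 W-box cores and SZF1 4. Among 20536 such windows of tested nuclear protein-coding genes, 7.42% held a G-box, 12.3% an I-box, 45.3% a W-box core and 2.76% the CGCG-type element. For genes called higher the shares were 8.15%, 14.5%, 53.2% and 5.58%, and for genes called lower 6.65%, 12.7%, 42.4% and 2.02%. A W-box core was found in 19 of the 25 measured WRKY genes and in 1 of the 9 LHCII genes. Other defence and rapid response lists varied. It was in 16 of 25 CC-NBS, 56 of 105 TIR-type, 15 of 19 pattern-triggered immunity and 11 of 19 touch genes. It was also in 19 of 29 cysteine-rich receptor-like kinase genes, but in only 7 of 17 salicylate and pipecolate genes, or 41.2%. Of the LHCII genes 1 held a G-box and 1 an I-box. Other photosynthesis lists had a W-box core in 2 of 5 minor antenna, 3 of 11 photosystem II and 7 of 19 Calvin cycle genes. At photosystem I it was in 3 of 6 antenna and 3 of 12 subunit genes, and in electron transport in 6 of 10. A G-box was in 2 of 5 minor antenna, 3 of 11 photosystem II and 3 of 19 Calvin cycle genes. At photosystem I the G-box was in 1 of 6 antenna and 2 of 12 subunit genes, and in electron transport in 1 of 10. These are letter matches, not binding sites.

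Aquaporins, the membrane channels that carry water, were lower for every gene of the list used here, which was not checked to hold the whole family. All 19 measured genes were called lower, between -1.08 and -2.89 with a median of -1.55, and all 19 were called after the GC and length correction (median -1.31). Their summed level was 2821, 3523 and 2948 CPM in wild type and 706, 934 and 1199 CPM in the mutant, with no overlap. Leaving out single libraries left 18 or 19 of the calls. TIP1;1, a channel of the vacuolar membrane, had 286, 354 and 267 CPM in wild type against 38.1, 38.1 and 50.6 CPM (-2.84 ± 0.18, adjusted p = 2.78e-06). TIP2;1 had 181, 232 and 186 CPM against 24.3, 24.1 and 36.1 CPM (-2.82 ± 0.20). TIP1;2 and TIP2;2 were lower at -2.24 ± 0.21 and -2.82 ± 0.31. Channels of the plasma membrane changed in the same direction, with PIP1;4 at 186, 219.6 and 169 CPM against 72.9, 71.2 and 67.5 CPM (-1.44 ± 0.16, adjusted p = 8.46e-05), with little spread within the mutant.

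Genes of growth were lower in part. Of 17 expansins, which loosen cell walls, 8 were lower and none higher, against 6 after the correction. EXPA8 stood at 12.1, 11.6 and 13.3 CPM in wild type against 1.4, 1.19 and 2.4 CPM (-2.87 ± 0.28), and EXP3 at 21.5, 25.1 and 15.9 CPM against 4.62, 5.2 and 5.82 CPM (-1.99 ± 0.19). Among 30 wall-remodelling XTH genes, 3 were higher and 2 lower, against 1 and 2 after the correction, with XTH8 at -1.40 ± 0.30. These shares, 10% and 6.67%, were near or below the 8.77% higher and 14.8% lower of all tested genes. Among 6 cellulose synthases edgeR made no call, none had an unadjusted p under 0.05, and DESeq2 called 1 higher. Ribosomal protein genes had 35 of 115 lower and 2 higher, with a median of -0.58 and 20 lower after the correction. The number called lower was 16, 17 and 17 without wild type replicate 2, mutant replicate 1 or mutant replicate 2, and mutant replicate 1 was the lowest mutant library for 90 of the 115. These ribosomal protein genes are short, with a median exonic length of 992 bases against 1763 over all tested genes. Their share called lower, 30.4%, was near the 27.2% of all genes in the length bin of 907 to 1146 bases. AT3G22230, of the L27e family, stood at 270.1, 452 and 223 CPM against 74.8, 82.2 and 89 CPM (-1.94 ± 0.29), and AT3G06700, of the L29e family, at 366, 547 and 358 CPM against 50.4, 95.6 and 141 CPM (-2.14 ± 0.36). DNA replication had 2 of 11 lower and mitosis and cytokinesis 2 of 13, with 1 and 0 called after the correction. Both shares are near the 14.8% of all tested genes called lower.

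Hormone lists gave mixed calls, and shares near the 8.77% higher and 14.8% lower of all tested genes are no result about a list. In gibberellin synthesis and signalling 5 of 14 were lower and 1 higher, against 4 and 0 after the correction. GAI, a DELLA repressor of the pathway, had nearly equal replicates, at 35.9, 36.5 and 37.1 CPM in wild type against 12.5, 15 and 14.9 CPM (-1.37 ± 0.12, adjusted p = 1.95e-05). Another DELLA gene, RGL2, was lower at -1.34 ± 0.23, and the synthesis gene GA3OX1 at -1.19 ± 0.19. The receptor gene GID1A was higher by 0.43 ± 0.11, and that call was lost after the correction and without wild type replicate 1, wild type replicate 3 or mutant replicate 1. Among Aux/IAA auxin repressors 6 of 21 were higher and 3 lower, such as IAA2 at 1.0 ± 0.17 and IAA7 at -0.67 ± 0.12. After the correction the balance turned, to 3 higher and 5 lower, and the median went from 0.13 to -0.10. Only 3 were called higher without wild type replicate 1, wild type replicate 3 or mutant replicate 1. Brassinosteroid genes had 2 of 8 lower, both for synthesis enzymes, CPD (-1.18 ± 0.20) and DET2 (-1.29 ± 0.31, not called after the correction). Of 14 ethylene genes 1 was called, ACS6, which encodes a synthesis enzyme and stood at 14.8, 14.9 and 17 CPM against 40.3, 42.4 and 37.1 CPM (1.36 ± 0.12, adjusted p = 2.61e-05). Of 24 jasmonate genes 4 were higher and 1 lower, but after the correction, or without wild type replicate 1 or wild type replicate 2, 1 was higher and none lower. Without mutant replicate 3, 1 was higher and 3 lower. Over the 14 alternatives the number called higher ran from 1 to 7. The list includes the repressor JAZ1 at 1.21 ± 0.26 (0.84 and not called after the correction).

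Of 25 ABA genes 2 were higher and 4 lower, shares near those of all tested genes before the correction. After the correction 2 of the 25 were higher and 6 lower, beside 1590 higher and 2176 lower of all 21322 tested genes. CYP707A3, whose enzyme inactivates ABA, stood at 2.62, 2.46 and 2.76 CPM in wild type against 19.7, 17.1 and 16.8 CPM in the mutant (2.77 ± 0.17, adjusted p = 2.5e-06). MYB96, a transcription factor of the ABA response, had 8.4, 6.83 and 6.19 CPM against 39.7, 28.3 and 22 CPM (2.07 ± 0.23). The ABA-induced genes KIN1 and COR15A were lower, KIN1 at 72.7, 73.9 and 26.9 CPM against 5.6, 6.53 and 3.55 CPM (-3.47 ± 0.38) and COR15A at -1.99 ± 0.32. RAB18, a dehydrin gene, had 29.9, 4.25 and 5.17 CPM in wild type against 0.791, 1.43 and 0.888 CPM (-3.64 ± 0.80). Wild type replicate 1 was far above the other wild type libraries for RAB18, and the call was lost after the correction.

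Genes for intracellular immune receptors were higher. Of 25 measured CC-NBS receptors 23 were higher and none lower, with a median of 0.90. For all 25 every mutant library exceeded every wild type library. Of 105 TIR-type receptors and TIR domain proteins 64 were higher and none lower, with a median of 0.77. These genes are long, with a median exonic length of 3298 and 3851 bases against 1763 over all tested genes, and lower in GC, at 39.5% and 40.3% against 41.1%, and both properties moved with the genotype difference. After the correction 11 of the 25 were higher and none lower, and 41 of the 105 were higher and 3 lower, with medians of 0.39 and 0.41. Mutant replicate 1 was the highest mutant library for 24 of the 25 and for 71 of the 105. Without single libraries 16 to 23 and 43 to 62 were called higher.

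The receptor genes with the smallest adjusted p or largest rise spanned a wide range of folds. AT1G66090, of the TIR-NBS class, stood at 1.05, 1.05 and 3.48 CPM in wild type against 27.7, 31.9 and 20.5 CPM (3.84 ± 0.44, adjusted p = 0.000105). AT5G41740, a TIR-NBS-LRR gene, had 18.1, 12.3 and 21.4 CPM against 177, 146 and 132 CPM (3.13 ± 0.20, adjusted p = 3.02e-06). The groups did not overlap for either gene, which the rule for the 12 largest rises by fold required. WRR4, whose product gives resistance to white rust, had 39.9, 26.8 and 42.4 CPM against 199, 172 and 152 CPM (2.26 ± 0.20). AT1G63860, AT1G63750 and AT1G72940 were higher by 2.78 ± 0.25, 2.4 ± 0.19 and 2.11 ± 0.15. In the CC-NBS list CW9 had 15.1, 14.7 and 17.8 CPM against 49.3, 36.7 and 31.3 CPM (1.3 ± 0.19), and AT1G63350 3.91, 3.51 and 3.85 CPM against 15.4, 12.1 and 8.62 CPM (1.68 ± 0.23). ADR1, a helper for other receptors, was higher by less (0.76 ± 0.14). All 9 of these genes were still called after the correction. Receptor genes often have near-identical neighbours, and the sources used here do not say how shared reads were divided.

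WRKY factors had 12 of 25 members higher and 1 lower before the correction and 12 higher and none lower after it. Their summed level was 304, 337 and 357 CPM in wild type and 746, 808 and 756 CPM in the mutant. Without wild type replicate 1, 8 of the 25 were called higher. WRKY33, a regulator of camalexin synthesis, stood at 18.8, 22.2 and 35.2 CPM against 220.4, 213 and 171 CPM (2.99 ± 0.25, adjusted p = 1.69e-05). WRKY18 was at 25.7, 24.3 and 27.9 CPM against 92.3, 93.8 and 95.2 CPM, with little spread in either group (1.85 ± 0.14). WRKY40, which acts with WRKY18, had 2.16, 2.34 and 6.07 CPM against 22.5, 29.8 and 24.5 CPM (2.86 ± 0.33). WRKY53 and WRKY46 were higher by 2.58 ± 0.23 and 1.90 ± 0.29. WRKY17, chosen after its values were seen, was the gene called lower (-0.52 ± 0.17), and 8 of the 14 alternatives lost that call, including each that left out a single library other than mutant replicate 3.

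Among membrane-bound and signalling genes of defence, 9 of 29 cysteine-rich receptor-like kinases were higher, against 7 after the correction, with CRK10 at 29.7, 23.9 and 33 CPM in wild type against 148, 163 and 151 CPM (2.42 ± 0.19) and CRK41 at 2.60 ± 0.23. In pattern-triggered immunity 6 of 19 were higher, against 8 after the correction, including EFR, the receptor of a bacterial elongation factor (1.34 ± 0.14), the kinase gene MPK3 (1.15 ± 0.13) and RBOHD, which encodes an NADPH oxidase (0.77 ± 0.15). Salicylate and pipecolate signalling had 11 of 17 higher and 1 lower, against 10 and 1 after the correction. NPR3, a salicylate receptor gene, stood at 23.1, 20.2 and 25.8 CPM against 96.3, 76.1 and 67 CPM (1.79 ± 0.18), and SARD1, SAG101 and ALD1 were higher by 1.99 ± 0.23, 1.17 ± 0.14 and 2.33 ± 0.36. The span of SARD1 overlaps GIP2 on the other strand. ALD1 was low in every library, at 0.408, 0.308 and 0.421 CPM against 2.62, 1.86 and 1.38 CPM. PR5, a pathogenesis-related gene, was lower, at 18.8, 23.3 and 13.7 CPM against 3.16, 3.86 and 4.18 CPM (-2.31 ± 0.36). PR1, a marker of salicylate responses chosen after its values were seen, had 4.26, 5.23 and 3.73 CPM against 0, 0.334 and 0.0444 CPM, apart in every library but not called (-4.98 ± 1.81, adjusted p = 0.0626). MYB51, an activator of indole glucosinolate synthesis, was higher at 7, 7.08 and 10.5 CPM against 29.6, 28.9 and 27.1 CPM (1.80 ± 0.16), while the synthesis gene CYP79B2 was lower (-0.95 ± 0.16). In that list 1 of 10 was higher and 4 lower, beside 8.77% higher and 14.8% lower of all tested genes. After the correction 1 was higher and 2 lower, and without single libraries 1 to 5 were lower.

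Genes known to respond within minutes to touch and other stresses had 13 of 19 members higher and none lower, with a median of 1.01, and 15 were higher after the correction, with a median of 1.38. SZF1, a zinc finger gene, stood at 25.7, 22.3 and 28.7 CPM in wild type against 181, 174 and 186 CPM (2.82 ± 0.16, adjusted p = 2.27e-06). TCH2, which encodes a calmodulin-like protein, had 19.9, 27.1 and 22 CPM against 75, 84.4 and 88.1 CPM (1.84 ± 0.17). TCH3 and the XTH gene TCH4 were higher by 2.17 ± 0.36 and 2.37 ± 0.35. ORA47, a transcription factor gene of the jasmonate response, had 2, 1 and 4 counts in wild type and 132, 67 and 89 counts in the mutant (5.10 ± 0.60, adjusted p = 0.00011). CBF1, a cold-response factor gene chosen after its values were seen, had 1, 0 and 0 counts in wild type against 25, 20 and 24 in the mutant, so the ratio of the summed counts was 57.6, with an interval from 10 to 2309 (exact, 95%, counting error only).

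The largest rise by fold was that of MRD1, annotated as mto 1 responding down 1, with 3, 2 and 1 counts in the wild type libraries and 516, 714 and 877 counts in the mutant libraries (8.11 ± 0.28, adjusted p = 9.76e-09). Its annotated span overlaps HEI10 on the other strand over 1446 bases. The sources used here do not say whether counting used the strand, and HEI10, chosen after its values were seen, stood at mean levels of 3.26 and 7.10 CPM. QQS, an orphan gene known for its effect on starch, was at 4.84, 9.23 and 1.8 CPM in wild type against 54.2, 61.2 and 41.6 CPM (3.31 ± 0.53). PP2-A5, a phloem protein gene, had 4.02, 2.71 and 4.87 CPM against 52, 44.7 and 28.8 CPM (3.43 ± 0.31), and the ankyrin repeat gene AT2G24600 had 7.46, 7.63 and 8.11 CPM against 75.6, 81.2 and 70.1 CPM (3.29 ± 0.27). HSPRO2 varied more in wild type, at 27.5, 8.31 and 41.4 CPM against 241, 229 and 287 CPM (3.29 ± 0.66). The other genes of the 12 largest rises were AT5G45630 at 3.69 ± 0.36, AT3G48650 at 3.44 ± 0.51, AT4G29780 at 3.30 ± 0.34 and RTFL12, a small peptide gene, at 3.16 ± 0.39. All of these had replicates that did not overlap between genotypes, which the rule required.

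Per kilobase of exon, the largest rise was that of ERD15, a dehydration-induced gene, from 182 to 436 CPM per kb, with libraries at 239.9, 224 and 291 CPM against 457, 636 and 720.0 CPM (1.26 ± 0.22). AT1G79245 had 306, 133 and 407 CPM against 1536, 997 and 958 CPM (2.04 ± 0.41), and BT5, a BTB-TAZ domain gene, 37.2, 26.2 and 40.5 CPM against 336, 235 and 198 CPM (2.89 ± 0.43). AT2G32690, AT5G54940, J8 and the clock-related RVE2 were higher by 0.87 ± 0.19, 1.21 ± 0.21, 1.79 ± 0.44 and 0.87 ± 0.19, and J8 lost its call without mutant replicate 1. The row of the microRNA precursor MIR414 was called higher (0.71 ± 0.24, adjusted p = 0.0488), but its libraries overlapped, at 36.1, 46.7 and 33 CPM against 91.9, 54.6 and 42.6 CPM, and the sign turned after the correction (-0.29). Its call was also lost with the 6 untreated libraries alone and without wild type replicate 1, wild type replicate 3, mutant replicate 1 or mutant replicate 2.

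Some of the largest falls rest on few libraries or on unusual rows. AT3G01345, of unknown function, had 7, 1172 and 28 counts in wild type and 1, 0 and 5 in the mutant, so that replicate 2 held nearly all of its wild type counts. Its fold change of -7.86 ± 2.62 (adjusted p = 0.0463) lost the call without that library, after the correction, and without any of the mutant libraries. Under ABA the same pattern stood in wild type, with 1, 941 and 7 counts, against 1, 3 and 0 in the mutant. AT2G01020 and AT3G41979, rows annotated as ribosomal RNA, were at 41.7, 53 and 42.2 CPM and 42.6, 53.6 and 42.7 CPM in wild type against 2.07, 1.91 and 3.38 CPM and 2.62, 2.1 and 3.82 CPM in the mutant (-4.20 ± 0.36 and -4.01 ± 0.35). Untreated wild type was the group apart for both rows. Under ABA AT2G01020 had 108, 52 and 37 counts in wild type and 60, 43 and 45 in the mutant. In untreated libraries it had 715, 861 and 702 counts in wild type and 34, 40 and 76 in the mutant. AT3G41979 had 117, 60 and 39 counts in wild type and 65, 56 and 51 in the mutant under ABA. The cause was not tested. Libraries were made with an mRNA kit per the labels, so these rows do not measure ribosome content. AT2G43540, of unknown function, was at 8.8, 8 and 5.47 CPM against 0.365, 0.286 and 0.355 CPM (-4.45 ± 0.33, adjusted p = 7.24e-06).

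Sulfate genes were mostly higher. Sulfate uptake and assimilation had 5 of 8 higher and none lower, against 4 after the correction. APR1, which encodes a reductase of the pathway, had 148, 145 and 151 CPM in wild type against 276, 300.4 and 299.5 CPM, close together in both groups (0.98 ± 0.19, adjusted p = 0.00286), and SDI1, a gene induced by low sulfur, 8.34, 8.12 and 6.13 CPM against 27.7, 32.1 and 26.2 CPM (1.93 ± 0.41). Iron genes had 2 of 17 higher, with bHLH101 at 1.39 ± 0.39, and 4 lower, with the ferritin gene FER1 at -0.97 ± 0.31. These are 11.8% and 23.5% of the list, beside 8.77% higher and 14.8% lower of all tested genes. After the correction 2 were higher and 2 lower. FER1 lost its call in 7 of the 14 alternatives, the correction among them, and without any single library other than mutant replicate 3. The call of bHLH101 was lost without any of the wild type libraries or mutant replicate 1. In all, none of the 17 was called higher without wild type replicate 1, wild type replicate 3 or mutant replicate 1, and 1 was called lower without wild type replicate 2, mutant replicate 1 or mutant replicate 2. Antioxidant enzymes had 7 of 12 lower, against 4 after the correction and 2, 3 and 3 without wild type replicate 2, mutant replicate 1 or mutant replicate 2. APX1, an ascorbate peroxidase gene, stood at 983, 1060 and 1014 CPM against 188, 379 and 473 CPM (-1.55 ± 0.34), and the superoxide dismutase genes CSD2 and CSD1 were lower at -1.42 ± 0.31 and -1.1 ± 0.27, with CSD1 not called after the correction or without wild type replicate 2. CAT3 was lower at -0.87 ± 0.26, and that call was lost without any single library other than mutant replicate 3. Flavonoid genes had 6 of 19 lower, with the entry enzyme gene CHS at 944, 869 and 810.5 CPM against 147, 321 and 386 CPM (-1.62 ± 0.33, and -0.58 and not called after the correction), and 1 higher, the repressor MYBL2 (1.0 ± 0.29). After the correction 1 of the 19 was lower and none higher, and MYBL2 also lost its call without wild type replicate 1, wild type replicate 2 or mutant replicate 1.

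Root and epidermis markers included SHR, a radial patterning factor, at 18.7, 18.5 and 21.2 CPM in wild type against 4.56, 6.58 and 7.91 CPM (-1.61 ± 0.18), CASP1, for a Casparian strip protein, at 13.5, 19.8 and 21.6 CPM against 1.52, 3.29 and 7.55 CPM (-2.12 ± 0.42), and TIP2;3, which is also an aquaporin, at -2.89 ± 0.57. Of 6 stomatal lineage and trichome markers 2 were lower and 4 not called, with a median of -0.06 and 2 lower after the correction. TMM, of the stomatal lineage, was lower at -1.38 ± 0.20 and lost the call after the correction. In the clock 1 of 19 was higher, RVE1 (1.24 ± 0.22), and 6 were lower, among them ELF4 (-1.06 ± 0.24, not called with the replicate block and the correction together) and the clock output gene GRP7 (-1.47 ± 0.35, not called after the correction). After the correction 3 of the 19 were higher and 2 lower, and the median went from 0.16 to -0.15, so that before and after it the median had the sign opposite to the balance of calls. Of 10 flowering-time genes CO was lower (-1.20 ± 0.24) and SOC1 higher (0.86 ± 0.22), the latter not after the correction or without mutant replicate 1. TPS8 (1.88 ± 0.43) was the 1 call among 8 genes of sugar starvation and trehalose phosphate. BZIP60 (1.1 ± 0.14) was the 1 among 9 of the unfolded protein response, and GBSS1 (0.96 ± 0.21) and QQS the 2 among 15 starch genes. From flowering time to starch, the shares called higher ran from 10% to 13.3%, near the 8.77% of all tested genes. The 10% of flowering-time genes called lower was near the 14.8% of all tested genes. Among 18 genes of RNA silencing and DNA methylation neither edgeR nor DESeq2 made a call, 2 had an unadjusted p under 0.05 in edgeR, and the median was 0.12.

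**Figure D4:**
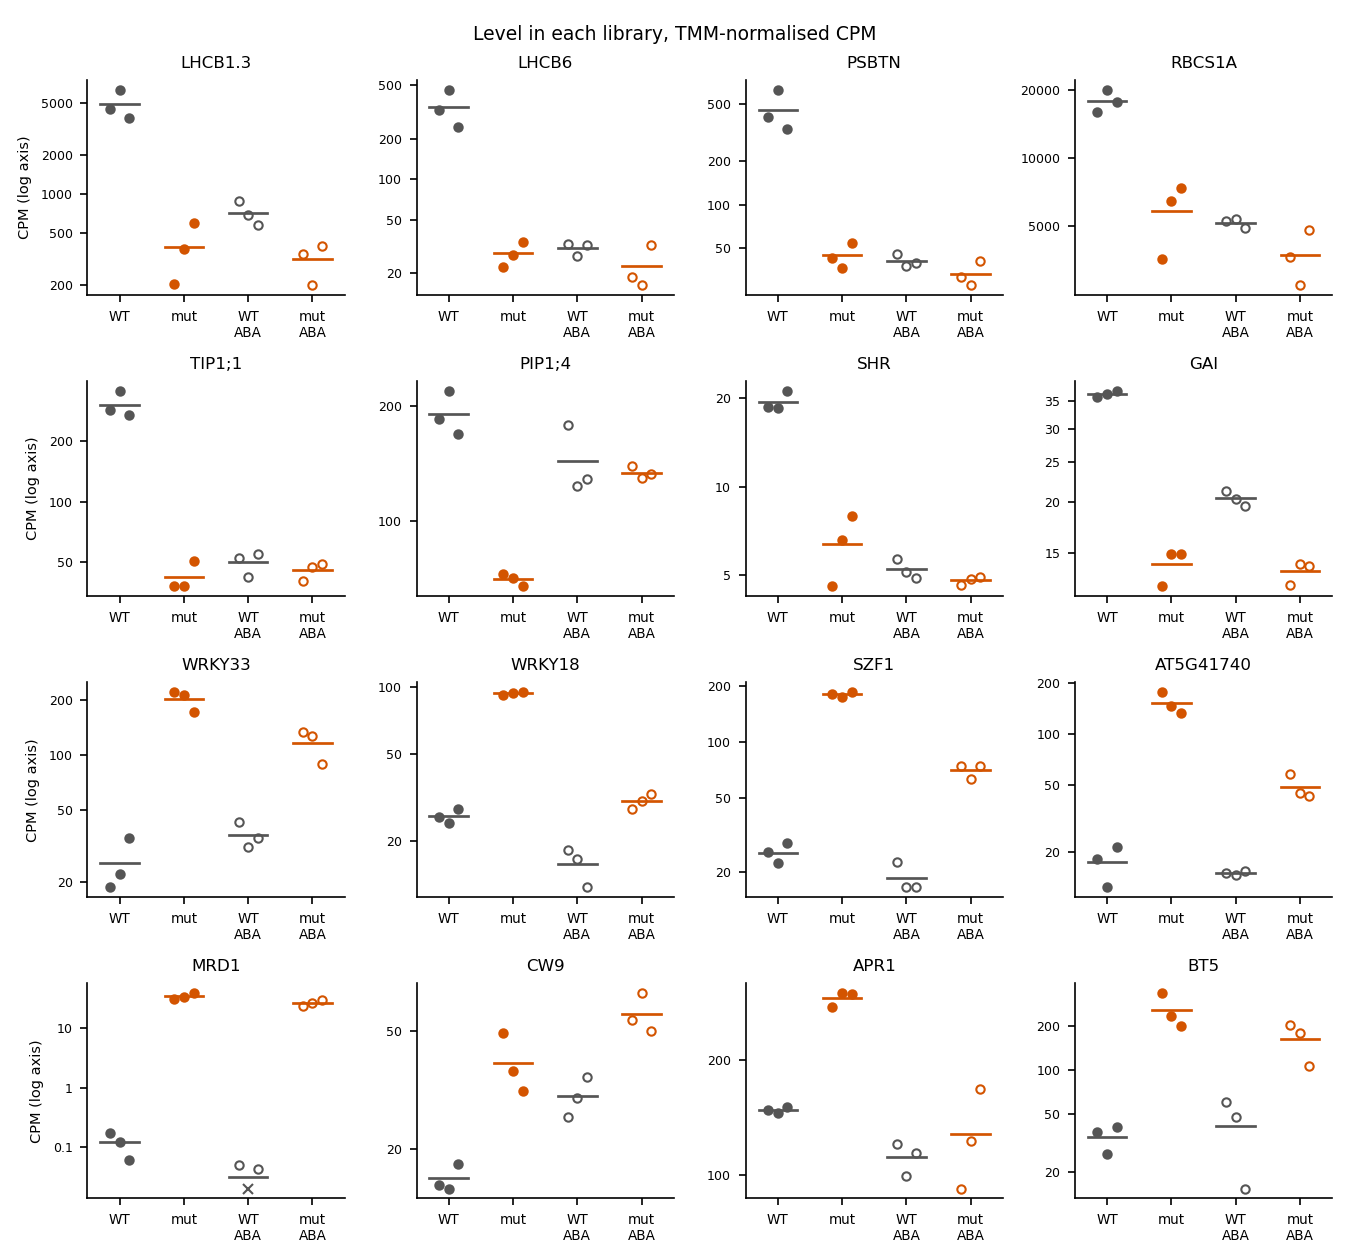
Level of 16 genes in each of the 12 libraries (vertical, TMM-normalised CPM on a log axis) by group (horizontal). Grey is wild type, orange the mutant, filled points untreated and open points under ABA, lines are group means, and the cross marks a library with 0 counts. Untreated wild type lies apart from the untreated mutant for every gene shown, with LHCB1.3 at 4513, 6328 and 3830 CPM against 201, 377 and 597 CPM.

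The same genotypes under ABA were compared in libraries whose levels do not enter the untreated fold changes, although both comparisons come from 1 fit. There, 344 genes were higher in the mutant, which is 1.61% of those tested, and 38 lower, which is 0.178%. Of the 1869 genes higher untreated, 287 (15.4%) were also called higher under ABA, which is 83.4% of the 344. Of the 3153 genes lower untreated, 25 (0.793%) were also called lower under ABA, which is 65.8% of the 38. The sign was the same under ABA for 1745 of the higher (93.4%) and 2627 of the lower genes (83.3%). Over all tested genes 49.0% had a positive and 51.0% a negative value under ABA. The fold change fell with exonic GC content in both comparisons (Spearman rho -0.407 under ABA and -0.422 untreated). The part of this shared trend in the equal signs was not tested. The median fold change under ABA was 0.37 for the genes higher untreated and -0.27 for those lower untreated. The test of the difference between both genotype effects called 384 genes, or 1.8% of those tested, of which 344 were among the genes called lower untreated and 28 among those called higher.

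Under ABA the summed photosynthesis levels of both genotypes overlapped. Their 7 lists summed to 35755, 36964 and 33645 CPM in wild type and 27507, 20593 and 34523 CPM in the mutant under ABA, and 1 of the 72 was called lower. The untreated mutant, with a mean of 43826 ± 12070 CPM, thus lay nearer to wild type under ABA (35455 ± 1680) than to untreated wild type (106222 ± 6958). LHCB6 stood at 33.1, 26.9 and 32.5 CPM in wild type and 19, 16.4 and 32.7 CPM in the mutant under ABA, and its genotype effect differed between the conditions (adjusted p = 0.00236). TIP1;1 was at 52.6, 42.4 and 55.1 CPM and 40.6, 47.3 and 48.9 CPM (adjusted p = 0.000604 for the difference), and PIP1;4 at 179, 124 and 129 CPM and 139.7, 129.6 and 133 CPM (adjusted p = 0.00945). Of the aquaporins none was called under ABA, and 6 of the 19 passed the test of the difference.

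In the immune and rapid response lists fewer members were called under ABA than without treatment, which is no test of a difference. Under ABA 19 of the 105 TIR-type genes and 4 of the 25 CC-NBS genes were higher, and 2 and 0 passed the test of the difference. Of the 25 WRKY genes 5 were higher under ABA, against 12 untreated, and of the 19 touch genes 3, against 13. The list medians under ABA were 0.39 for the TIR-type genes, 0.52 for CC-NBS, 0.59 for WRKY and 0.69 for touch, each below its untreated value of 0.77, 0.90, 0.83 and 1.01. MRD1 was at 1, 0 and 1 counts in wild type and 481, 520 and 572 counts in the mutant. AT1G63860 stood at 4.88, 7.27 and 9.25 CPM against 54.9, 32.5 and 40.6 CPM (2.58 ± 0.24), CRK10 at 24, 31.1 and 37 CPM against 153, 114 and 126 CPM (2.09 ± 0.18), and WRKY53 at 2.87 ± 0.24. These values are close to their untreated folds, and the test of the difference gave adjusted p = 0.841, 0.659 and 0.765. WRKY40 and ACS6 had smaller effects under ABA, at 0.86 ± 0.31 and 0.33 ± 0.12, and their effects differed (adjusted p = 0.04 and 0.00955). ALD1 was not called under ABA (-0.72 ± 0.34), and its effect differed (adjusted p = 0.00874). APR1, SDI1 and JAZ1 stood at 0.20 ± 0.19, 0.01 ± 0.40 and -0.14 ± 0.26 under ABA without a call, and their differences between conditions did not pass (adjusted p = 0.198, 0.129 and 0.0937).

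**Figure D5:**
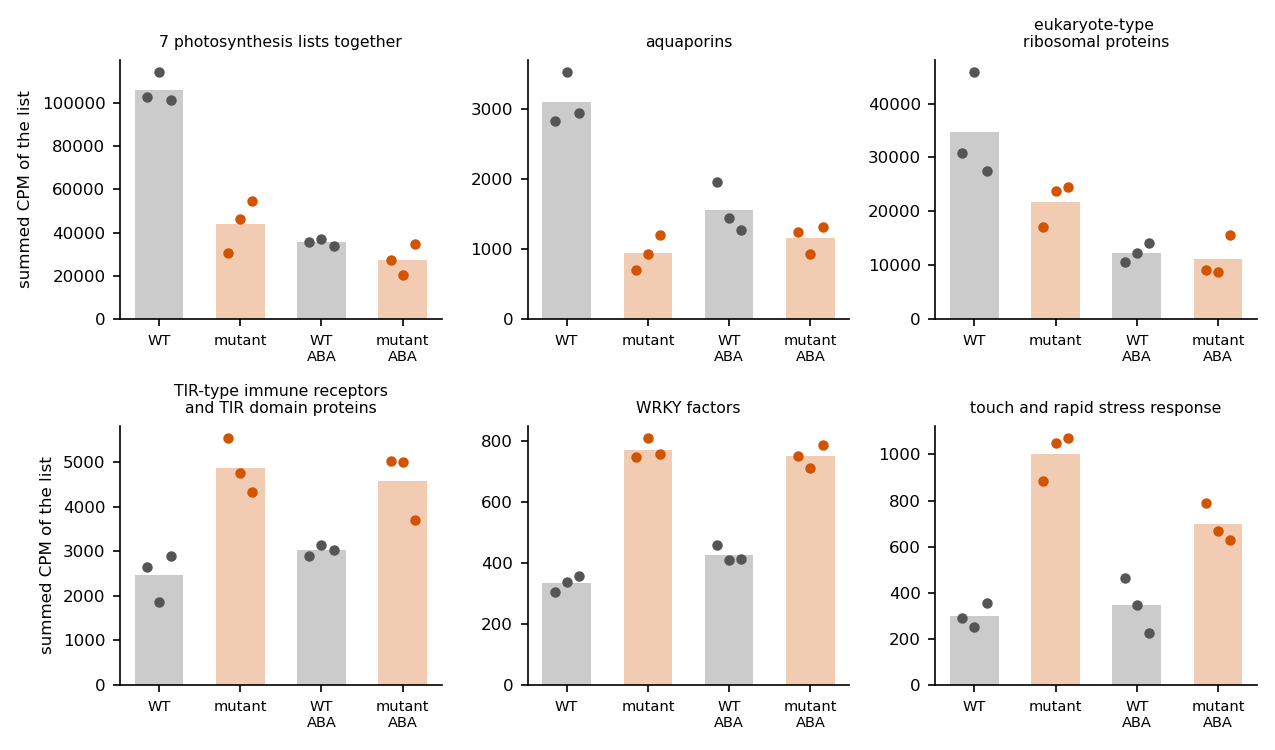
Summed level of 6 gene lists in each of the 12 libraries (vertical, summed TMM-normalised CPM) by group (horizontal). Points are libraries and bars are group means, grey for wild type and orange for the mutant. The photosynthesis sum falls from 106222 ± 6958 CPM (SD, n = 3) in untreated wild type to 43826 ± 12070 CPM in the untreated mutant, and the WRKY sum goes from 333 ± 26.9 to 770.0 ± 33.8 CPM.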

How the data were processed

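RNA was sequenced from 2-week-old seedlings, and counts were deposited by the authors as raw read counts per gene in 1 table of 12 libraries (4 groups of 3). Per the submitters' processing notes, Trim Galore 0.3.3, edgeR and the TAIR10 build were used. The sources used here name no aligner or counter, and no strand setting. No library was left out, and no column was unused. Of 33610 gene IDs, 32843 matched the RefSeq annotation of TAIR10.1, which gave names, exonic length and GC content.

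Genes were filtered with filterByExpr, which kept 21322 genes holding 99.96% of counts. edgeR 4.0.16 (R 4.3.3) fitted 1 mean per group to all 12 libraries with TMM scaling, and the quasi-likelihood test gave Benjamini-Hochberg adjusted p-values, called under 0.05. The biological coefficient of variation was 0.185. SE is the log2 fold change divided by the square root of F. Untreated libraries held 14691544 to 22477294 counts. Count ratios have exact 95% intervals that cover counting error only. No pair of libraries of a group agreed within sampling noise (chi-square over degrees of freedom 7.60 to 54.9).

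Replicate numbers did not pair the untreated samples: the 3 same-numbered pairs correlated at -0.000 to 0.107 in their deviations. Alternatives were DESeq2 1.42.0, RLE scaling, other filters, the 6 untreated libraries alone, the replicate block, a smooth correction of each library for GC content and length (mgcv 1.9.3), and leaving out each untreated library. Named genes were the 12 largest rises and 12 largest falls by fold (mean of at least 5 CPM, replicates apart), the 8 largest each way in CPM per kb, and up to 5 called members of each of 54 lists with the smallest adjusted p. Not every gene these rules pick is reported here. The comparison, lists and rules were chosen with earlier results of these data known. The test script was tested on simulated data.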

Additional observations from a re-analysis of the deposited data

Results flagged for a closer look

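The genotype difference without treatment was set against that under ABA by the interaction test of edgeR, and each gene named here passed it at an adjusted p under 0.05. Values are the log2 genotype difference untreated minus that under ABA.

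Of the 72 genes in the 7 photosynthesis lists, 19 passed the test, and those named here had a larger fall without treatment. The antenna genes LHCB1.2, LHCB1.3, LHCB1.5, LHCB2.1, LHCB4.1 and LHCB6 differed by -2.82, -2.46, -3.88, -1.74, -2.55 and -3.16. The photosystem genes PSAE2, PSAG, PSAL, PSBTN and PSBW differed by -2.30, -0.92, -2.49, -3.06 and -1.83. In the Calvin cycle CP12-1, FBA1 and FBA2 differed by -2.33, -2.46 and -2.40. CHLM, ELIP1 and AT3G63540 differed by -0.96, -1.66 and -3.07.

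The aquaporin genes TIP1;1, TIP1;2, TIP2;1, TIP2;2 and PIP1;4 differed by -2.70, -2.07, -2.31, -2.16 and -1.34. Other genes with a larger fall without treatment were EXP3 at -1.92, SHR at -1.48, GAI at -0.78, KIN1 at -3.02, AT2G43540 at -3.34 and the ribosomal protein gene AT3G22230 at -1.98. The rows annotated as ribosomal RNA, AT2G01020 and AT3G41979, differed by -3.91 and -3.80.

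A larger rise without treatment was found for ALD1 at 3.05, AT5G45630 at 2.71, WRKY40 at 2.0, MYB96 at 1.94, CYP707A3 at 1.88, AT5G41740 at 1.45, ACS6 at 1.02 and WRKY18 at 0.90. Groups of 3 libraries are too small to look for single outlying samples by the gap test.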

How the results depend on the processing

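Among the 140 called genes named in the text, 116 kept their call and direction in all 14 alternatives. MIR414 turned to -0.29 after the GC and length correction and to -0.28 with the replicate block added, so its sign depends on that correction. The number of genes higher in the untreated mutant was 893 to 2225 when single untreated libraries were left out, with 1046 without wild type replicate 1 and 893 without mutant replicate 1. The number lower was 1914 to 3443, with 1974, 1927 and 1914 without wild type replicate 2, mutant replicate 1 and mutant replicate 2. Other alternatives gave 1532 to 2489 higher and 2176 to 3410 lower genes. The replicate block called 1645 higher and 3039 lower, and with the GC and length correction 1532 and 2189. Under ABA, DESeq2 called 587 genes higher and 163 lower, the correction called 70 lower, and leaving out untreated libraries gave 253 to 444 higher and 31 to 90 lower, the last without mutant replicate 1. The test of the difference between conditions called 224 genes with the replicate block and the correction, 769 with DESeq2, and 129 to 478 without single untreated libraries. It called 216 and 196 without wild type replicates 1 and 2, and 236 and 129 without mutant replicates 1 and 2. The causes were not tested. Depth limits the genes with few counts, such as CBF1 and ORA47. Of 18 same-numbered pairs over all groups, 6 were over 0.1 in correlation. The same-numbered wild type and mutant libraries under ABA stood at 0.537, 0.0599 and 0.350. Differently numbered ones there ran from -0.540 to 0.0977. The main fit did not pair libraries, in either condition, and the replicate block is the alternative that uses the numbers.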
